A study of Homo sapiens with 16 samples.

Results

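HSP90B1 and 9 other genes of protein folding and entry at the endoplasmic reticulum (ER) are described across 4 groups of IMR32 cells. The 10 members were taken from the deposited count table by matching its Ensembl identifiers to the symbols HSP90B1, HSPA5, CALR, CANX, PDIA4, PDIA6, DNAJB9, DNAJB11, SDF2L1 and SPCS3. They are 10 of the 58787 identifiers in the table, and all 10 were among the 14193 genes with enough counts to be tested. HSP90B1 was selected because its measured level fell with si45 and not with si46 or si47, and SPCS3 was selected on its measured difference between siRNAs. The other 8 were listed by function. For HSP90B1 in every contrast, and for SPCS3 in contrasts of si45 or si46, values are therefore given as a description with no test. The question addressed is whether the fall of HSP90B1 with si45 was shared by the other ER chaperones.

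IMR32 is an established human neuroblastoma line with amplified MYCN. Cells were transfected with si45, si46 or si47, which are 3 different small interfering RNAs (siRNAs) against TPX2, a spindle protein of mitosis, or with the non-targeting siRNA siNTC. Each group had 4 libraries, described by the submitters as biological replicates, and the column names of the table give 48 h. All groups share the parental line and the transfection with an siRNA, and untransfected cells were not analysed here. All 3 siRNA groups were compared with the same 4 siNTC libraries.

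The ER lumen folds proteins of the secretory pathway. HSPA5 (BiP) is its Hsp70 chaperone, DNAJB9 and DNAJB11 are J-domain co-chaperones of HSPA5, and HSP90B1 (GRP94, endoplasmin) is its Hsp90 chaperone. CALR and CANX bind glycoproteins through their sugar chains, PDIA4 and PDIA6 are disulfide isomerases, and SPCS3 is a subunit of the signal peptidase that trims proteins as they enter the ER. When unfolded proteins accumulate, the sensors ERN1 (IRE1), EIF2AK3 (PERK) and ATF6 start the unfolded protein response (UPR), and many ER chaperone genes are known to be induced together through promoter elements bound by ATF6 and XBP1.

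The sites below are shown because they are a sequence that several members share. Many ER chaperone genes are known to be induced through such elements, as said above. Their presence in members listed as ER chaperones is therefore not an independent result. The ER stress response element (ERSE) was searched as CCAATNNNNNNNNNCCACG on both strands of RefSeq promoter windows of GRCh38.p14, each running from 250 bases before to 50 bases after a gene start. All 10 members had a window, 15 windows in all, and 5 of the 10 held the motif. Capitals mark the fixed ends of the motif, and each sequence is written 5′ to 3′ in the direction of the motif.
HSP90B1, chr12:103930216-103930234, plus strand: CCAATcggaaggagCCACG
HSP90B1, chr12:103930321-103930339, minus strand: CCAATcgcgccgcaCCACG
HSPA5, chr9:125241391-125241409, minus strand: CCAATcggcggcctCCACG
CALR, chr19:12938384-12938402, minus strand: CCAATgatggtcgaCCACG
CANX, chr5:179698778-179698796, plus strand: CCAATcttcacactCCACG
PDIA6, chr2:10812853-10812871, minus strand: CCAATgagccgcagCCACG
SDF2L1, ERSE-II, chr22:21642114-21642124, minus strand: ATTGGtCCACG

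HSP90B1 was the member with 2 ERSE matches, which end 176 and 71 bases before its RefSeq start and run in opposite directions. The matches of HSPA5, PDIA6, CANX and CALR ended 48, 68, 133 and 207 bases before the start used. CANX had 4 windows and PDIA6 had 2. Gene positions given below come from another annotation, GENCODE, and by those positions the matches of HSP90B1, CANX and PDIA6 lie inside the gene. Among all windows the motif was found in 27 of 35116 (0.0769%), or in 25 of 27305 genes (0.0916%). The shorter ERSE-II motif, searched as ATTGGNCCACG, was found in SDF2L1 and in 19 windows overall (0.0541%), and overlapped none of the ERSE matches listed. The UPR element searched as TGACGTGG was in none of the members' windows and in 256 of all windows (0.729%). These matches are a description of letters in the reference sequence. They are not measured binding sites, and a window without a match says only that these letters are not in it.

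QuantSeq libraries read transcripts from their 3′ ends. Total counts ran from 5318159 to 7864343 per library and did not differ between any siRNA group and siNTC beyond chance (two-sided exact permutation p = 0.71 to 0.83). Levels are given as CPM, the share of a library's counts after TMM scaling. TPX2 was at 327 ± 27.1 CPM (SD, n = 4) with siNTC, 91.6 ± 19.8 with si45, 81.7 ± 14.3 with si46 and 71.5 ± 3.38 with si47, so the targeted transcript was low in every knockdown group (two-sided exact permutation p = 0.0286 for each, the smallest that 4 against 4 libraries allow). The labels give the tissue as brain and the cell type as neuroblast. Of 12 markers of sympathetic neuroblasts, 11 had at least 10 counts in every library, and TH, the tyrosine hydroxylase of catecholamine synthesis, had 8 to 29. Of 12 markers of immune, epithelial, endothelial, mesenchymal and glial cells, 9 never exceeded 10 counts, with CD3E and SOX10 at 0, while COL1A1 had 115 to 347, PDGFRB 31 to 89 and PTPRC at most 16. The summed level of that list was 38 to 64.7 CPM with siNTC, 26.9 to 49 with si45, 36.5 to 81.6 with si46 and 26.1 to 62.1 with si47. The summed level of the 12 neuroblast markers was 5450 to 5810 CPM with siNTC, 5730 to 6240 with si45, 5920 to 6600 with si46 and 6170 to 6680 with si47. Its si46 and si47 libraries thus all lay above the controls, and its si45 libraries overlapped them. The part of either list in the results was not tested. In bulk RNA, fewer cells that carry a transcript and less of it per cell cannot be told apart.

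With si45, HSP90B1 stood at 65.1% of its control level while the level of HSPA5, the Hsp70 of the same compartment, was not lower. None of the 8 chaperones listed by function passed the test in either direction with si45, against 1.34% of all genes, and their median change was near 0. HSPA5 was called higher when the replicate number entered the fit as a block. SPCS3, which was grouped with them on measured values, was low with si46 and at its control level with si45. With si47, DNAJB9 was the member that rose, from a low level. The levels of all 10 members in each library are plotted here.

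**Figure D1:**
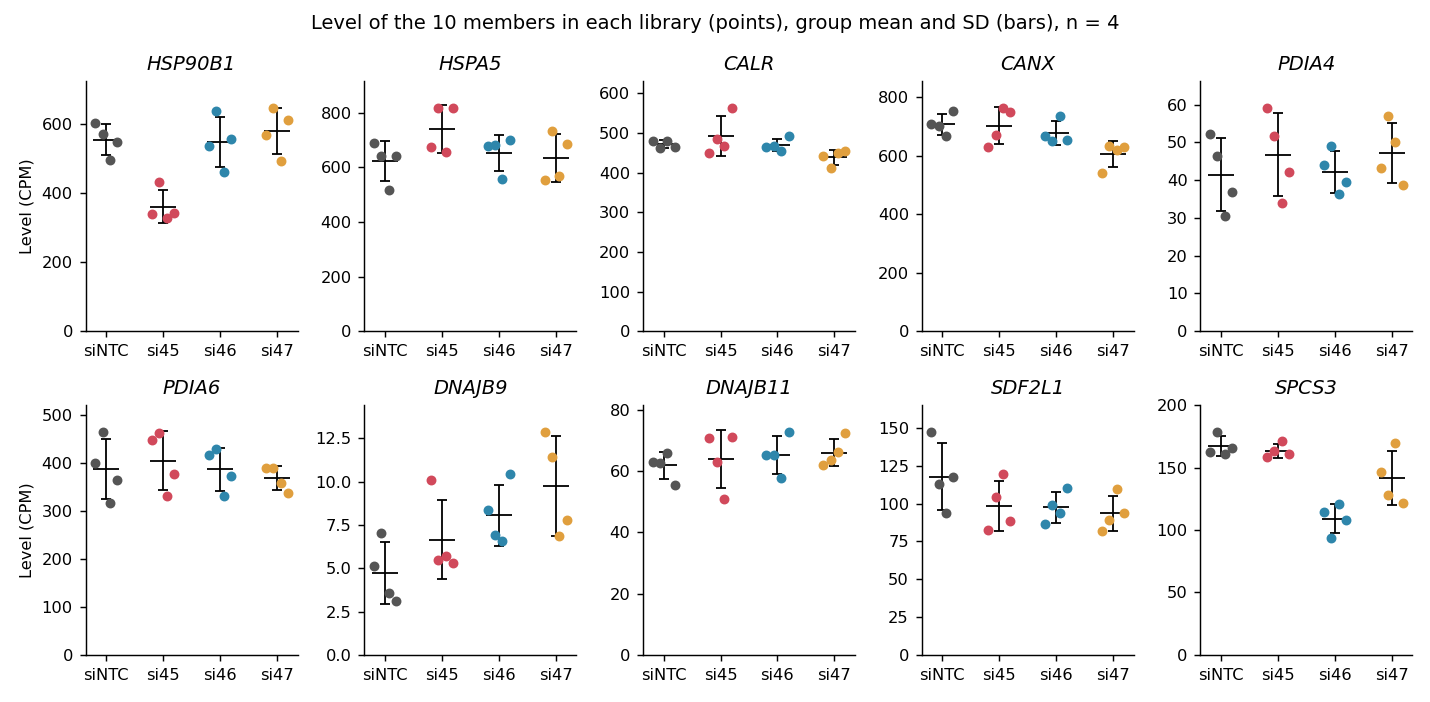
Level of each of the 10 members in CPM (vertical axes, all starting at 0) in the 16 libraries, by siRNA group. Points are libraries, the horizontal bar is the group mean and the error bar its SD (n = 4). The 4 si45 points of HSP90B1 lie between 327.5 and 433 CPM, below its other 12 libraries, and the 4 si46 points of SPCS3 lie between 93.67 and 120.5 CPM, below its other 12 libraries.

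HSP90B1 (ENSG00000166598) lies on chromosome 12, 103930107 to 103953645 on the plus strand of GRCh38. It assists the folding of a limited set of clients, among them integrins and Toll-like receptors. Its level in siNTC replicates 1 to 4 was 603, 571, 496 and 549 CPM. With si45 it was 341, 433, 327.5 and 344 CPM. With si46 it was 538, 637, 461 and 556 CPM, and with si47 it was 569, 647.5, 494 and 612 CPM. Every si45 library was therefore below every other library, and the nearest of the 12 others was at 461 CPM, while the si46 and si47 libraries overlapped the controls. In group means the order was si47 (580.5 ± 66.0), siNTC (554.7 ± 45.2), si46 (547.9 ± 72.2) and si45 (361.3 ± 48.3 CPM, SD, n = 4), and the first 3 did not differ beyond their spread.

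The mean of HSP90B1 with si45 was 65.1% of the control mean. As a description, the fitted log2 fold change was -0.62 with si45 (SE 0.10, 95% interval -0.82 to -0.41), and leaving out any 1 library gave -0.71 to -0.58. Against si46 it was -0.60 and against si47 -0.68. With si46 the change from siNTC was -0.02 (SE 0.10, interval -0.22 to 0.18). With si47 it was 0.07 (SE 0.10, interval -0.14 to 0.27). The choice of the gene fixed this pattern over the 3 siRNAs. Raw counts behind these levels were 1818 to 4248 per library, so counting error is small beside the spread between replicates.

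Other genes could share reads with HSP90B1. Its near-copies HSP90B2P and HSP90B3P had 1 to 38 and 4 to 21 counts per library. UQCC6, listed in the annotation as C12orf73, overlaps HSP90B1 on the opposite strand and had 117 to 213 counts. UQCC6 was at 24.2 ± 5.12 CPM with siNTC and 26.3 ± 4.78 with si45 (log2 change 0.13, edgeR adjusted p = 0.832), and with si47 it was higher, at 33.4 ± 1.47 (log2 change 0.47, edgeR adjusted p = 0.0473, lost on leaving out 9 of the 16 libraries in turn, up to 0.174). TTC41P on the opposite strand had at most 9 counts and MIR3652 had 0. Whether the counting used strand is not given in the sources used here. The cytosolic relatives HSP90AA1 and HSP90AB1 did not pass the test with si45, with log2 changes of 0.08 (edgeR adjusted p = 0.841) and -0.05 (edgeR adjusted p = 0.859). HSP90AA1 was at 3707 to 5326 CPM and HSP90AB1 at 3462 to 4223 CPM over the 16 libraries.

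HSPA5 (chromosome 9, 125234853 to 125241330, minus strand) is the Hsp70 chaperone that also holds the UPR sensors inactive. Its level in siNTC replicates 1 to 4 was 691, 643, 518 and 643 CPM. With si45 it was 673, 818, 655 and 816 CPM, with si46 677, 682, 556 and 700 CPM, and with si47 554, 734, 570 and 686 CPM. With si45, 2 of 4 libraries were above every control and none was below, and the groups overlapped in all 3 comparisons. Group means were 624 ± 74.1 CPM in the controls, 741 ± 88.8 with si45, 654 ± 66.1 with si46 and 636 ± 87.7 with si47 (SD, n = 4). The log2 change with si45 was 0.25 (SE 0.10, interval 0.04 to 0.46), in the direction opposite to that of HSP90B1, and it did not pass the threshold (edgeR adjusted p = 0.325). With the replicate number as a block it did, at 0.245 (edgeR adjusted p = 0.0296). With si46 it was 0.07 (edgeR adjusted p = 0.828) and with si47 0.03 (edgeR adjusted p = 0.918). The pseudogene HSPA5P1 had at most 12 counts.

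The count of HSP90B1 divided by that of HSPA5 in the same library does not depend on scaling, and is used here only to compare libraries. It was 0.893 ± 0.0449 with siNTC (SD, n = 4, range 0.854 to 0.957) and 0.489 ± 0.0469 with si45 (0.421 to 0.529). With si46 it was 0.838 ± 0.0663 and with si47 0.917 ± 0.0735, both overlapping the controls. This ratio was not tested, because HSP90B1 was chosen on its level with si45. The 10 members together held 0.281% to 0.331% of the counts of every library, with 0.31% ± 0.0194 in si45 and 0.314% ± 0.0233 in siNTC, so their total did not separate si45.

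**Figure D2:**
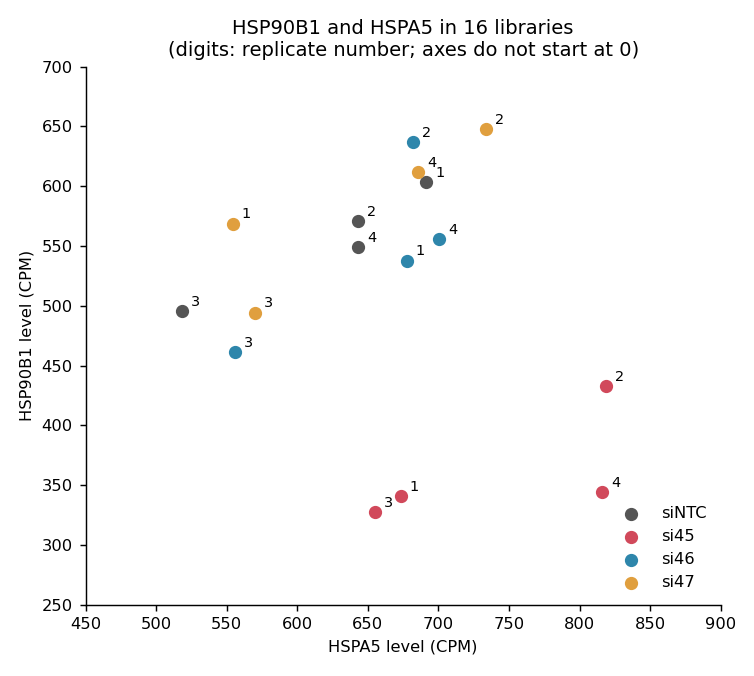
HSP90B1 (vertical axis, CPM) against HSPA5 (horizontal axis, CPM) in the 16 libraries, coloured by siRNA group, with the replicate number beside each point and axes that do not start at 0. The 4 si45 libraries lie below the rest in HSP90B1, at 327.5 to 433 CPM, while their HSPA5 levels of 654.7 to 818.3 CPM reach above those of the other groups.

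Of the co-chaperones, DNAJB9 (ERdj4; chromosome 7, 108569568 to 108574850, plus strand) binds HSPA5 and ERN1 and is a known UPR target. It was the least abundant member. Its level was 5.13, 7.04, 3.59 and 3.12 CPM in the siNTC libraries, from 18 to 45 counts. With si45 it was 10.1, 5.50, 5.72 and 5.296 CPM, with si46 8.355, 6.91, 6.565 and 10.4 CPM, and with si47 12.9, 11.4, 6.89 and 7.79 CPM, from 41 to 82 counts. With si47, 3 of 4 libraries were above every control. DNAJB9 rose with si47 by 1.03 on the log2 scale (SE 0.29, interval 0.44 to 1.63, edgeR adjusted p = 0.0195). The change was 0.76 with si46 (edgeR adjusted p = 0.182) and 0.49 with si45 (edgeR adjusted p = 0.574). Between si45 and si47 the difference of -0.54 did not pass the threshold either (edgeR adjusted p = 0.509). The si47 call was lost on leaving out siNTC replicate 3 (edgeR adjusted p = 0.0661), siNTC replicate 4 (0.0827), si47 replicate 1 (0.0961) or si47 replicate 2 (0.0629). DNAJB9 shares its locus with PNPLA8 and THAP5 on the opposite strand, which had more counts than it (109 to 203 and 155 to 261) and did not pass the test with si47 (edgeR adjusted p = 0.259 for PNPLA8 and 0.915 for THAP5).

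DNAJB11 (ERdj3; chromosome 3, 186567403 to 186585800, plus strand) hands unfolded clients to HSPA5. It was at 61.8 ± 4.44 CPM with siNTC, 63.9 ± 9.53 with si45, 65.2 ± 6.24 with si46 and 66.0 ± 4.52 with si47 (SD, n = 4). Over all libraries it ran from 50.8 to 72.8 CPM and the groups overlapped. Its log2 changes of 0.05, 0.08 and 0.10 were within the spread (edgeR adjusted p = 0.922, 0.818 and 0.668).

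SDF2L1 (chromosome 22, 21642261 to 21644298, plus strand) is the partner of DNAJB11 in the HSPA5 cycle. Its level was 148, 113, 93.6 and 118 CPM in the siNTC libraries. It was 82.3, 104, 119.5 and 88.3 CPM with si45, 86.6, 99.3, 93.9 and 110 CPM with si46, and 81.7, 89.3, 109.5 and 93.6 CPM with si47. Groups overlapped, with 2, 1 and 2 of 4 libraries below every control. The log2 changes were -0.26 with si45 (SE 0.13, edgeR adjusted p = 0.427), -0.28 with si46 (adjusted p = 0.282) and -0.34 with si47 (adjusted p = 0.0907), so SDF2L1 was nearest to HSP90B1 in its direction with si45 but the difference of si45 from si46 was 0.02 and from si47 0.08 (edgeR adjusted p = 1 and 0.892). Its siNTC replicate 3 was the lowest control. Without replicate 3 of every group, a setting added after the data were seen, the log2 change of SDF2L1 was -0.46 with si45 (edgeR adjusted p = 0.0247) and -0.52 with si47 (edgeR adjusted p = 0.00311). Leaving out siNTC replicate 3 alone gave -0.43 with si47 (adjusted p = 0.0273), and leaving out si47 replicate 3 alone gave -0.42 (adjusted p = 0.0316).

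Of the lectin chaperones, CALR (calreticulin; chromosome 19, 12938578 to 12944489, plus strand) is the soluble form and also stores calcium. It was the most even member across libraries, at 411 to 563 CPM. Its means were 472 ± 10.2 CPM with siNTC, 491 ± 50.3 with si45, 470 ± 15.3 with si46 and 439 ± 19.2 with si47 (SD, n = 4). The siNTC libraries stood at 481, 461, 480 and 466 CPM and the si47 libraries at 442, 411, 449 and 454 CPM. All 4 si47 libraries were thus below every control, a separation whose share over all genes was not counted. The difference was small, at -0.10 on the log2 scale, and did not pass the test (SE 0.08, edgeR adjusted p = 0.455). With si45 the change was 0.06 (edgeR adjusted p = 0.854) and with si46 -0.01 (edgeR adjusted p = 0.982).

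CANX (calnexin; chromosome 5, 179678628 to 179730925, plus strand) is the membrane-bound lectin. It was at 707, 701, 666 and 753 CPM with siNTC and at 541, 633, 618 and 629 CPM with si47. All 4 si47 libraries were below every control. How many of all genes separate in this way with si47 was not counted, and 23.3% of them had an unadjusted edgeR p under 0.05. The log2 change with si47 was -0.22 (SE 0.08, interval -0.39 to -0.06), which missed the threshold (edgeR adjusted p = 0.0776). With the replicate number as a block it was -0.23 and passed (edgeR adjusted p = 0.0145). With si45 CANX was at 702 ± 63.9 CPM and with si46 at 676 ± 41.0 (SD, n = 4), and their log2 changes of -0.01 and -0.06 did not pass the test (edgeR adjusted p = 0.983 and 0.788). Between si45 and si47 the difference of 0.21 did not pass it (edgeR adjusted p = 0.298).

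The disulfide isomerases PDIA4 (ERp72; chromosome 7, 149003062 to 149028641, minus strand) and PDIA6 (P5; chromosome 2, 10783391 to 10837977, minus strand) form and rearrange disulfide bonds in proteins being folded. PDIA4 was at 52.1, 46.5, 30.6 and 36.8 CPM with siNTC and at 59.2, 51.7, 34.0 and 42.2 CPM with si45. It was at 42.3 ± 5.56 CPM with si46 and 47.3 ± 7.97 with si47 (SD, n = 4), and its groups overlapped throughout. The log2 changes of PDIA4 were 0.17, 0.02 and 0.18 with si45, si46 and si47 (edgeR adjusted p = 0.768, 0.973 and 0.559). PDIA6 was at 401, 466, 317 and 364.5 CPM with siNTC and at 449, 463, 331 and 377 CPM with si45. Its means were 387 ± 62.8 CPM with siNTC, 405 ± 61.9 with si45, 387 ± 44.6 with si46 and 369 ± 25.6 with si47 (SD, n = 4), and no library of any siRNA was outside the range of the controls. The log2 change of PDIA6 was 0.07 with si45 (edgeR adjusted p = 0.884) and -0.07 with si47 (edgeR adjusted p = 0.771). With si46 it was below 0.01 in size and changed sign with the scaling, so no direction is given.

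SPCS3 (ENSG00000129128; chromosome 4, 176319964 to 176332245, plus strand) is not a chaperone, and its level followed si46 rather than si45. It was at 163, 179, 161 and 166 CPM with siNTC and at 158, 163, 171.5 and 161 CPM with si45. With si46 it was at 114, 93.7, 120.5 and 108 CPM, and with si47 at 146.5, 128, 169.5 and 121.4 CPM. Every si46 library was below every other library, the nearest being 1 si47 library at 121.4 CPM against the highest si46 library at 120.5 CPM. In group means the order was siNTC (167.2 ± 8.03), si45 (163.4 ± 5.73), si47 (141.4 ± 21.5) and si46 (109.1 ± 11.5 CPM, SD, n = 4), of which the first pair did not differ beyond their spread. As a description, the log2 change was -0.61 with si46 (SE 0.10, 65.3% of the control mean) and -0.03 with si45, and si45 was 0.58 above si46. With si47 SPCS3 changed by -0.24 (SE 0.10, edgeR adjusted p = 0.112), and without si47 replicate 3 by -0.34 (edgeR adjusted p = 0.0165). The antisense gene SPCS3-AS1 had 0 counts.

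The other subunits of the signal peptidase were looked at after their values were seen. SPCS1 rose with si47 (log2 change 0.39, edgeR adjusted p = 0.0449), as did SEC11C (0.45, edgeR adjusted p = 0.0349), a catalytic subunit. SPCS2 and SEC11A did not pass the test with si46 (log2 changes 0.02 and 0.07, edgeR adjusted p = 0.974 and 0.787). SPCS1 and SEC11C were at 0.19 and 0.25 with si46 (edgeR adjusted p = 0.536 and 0.423). None of the 4 partners of SPCS3 was therefore lower with si46 in these libraries.

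**Figure D3:**
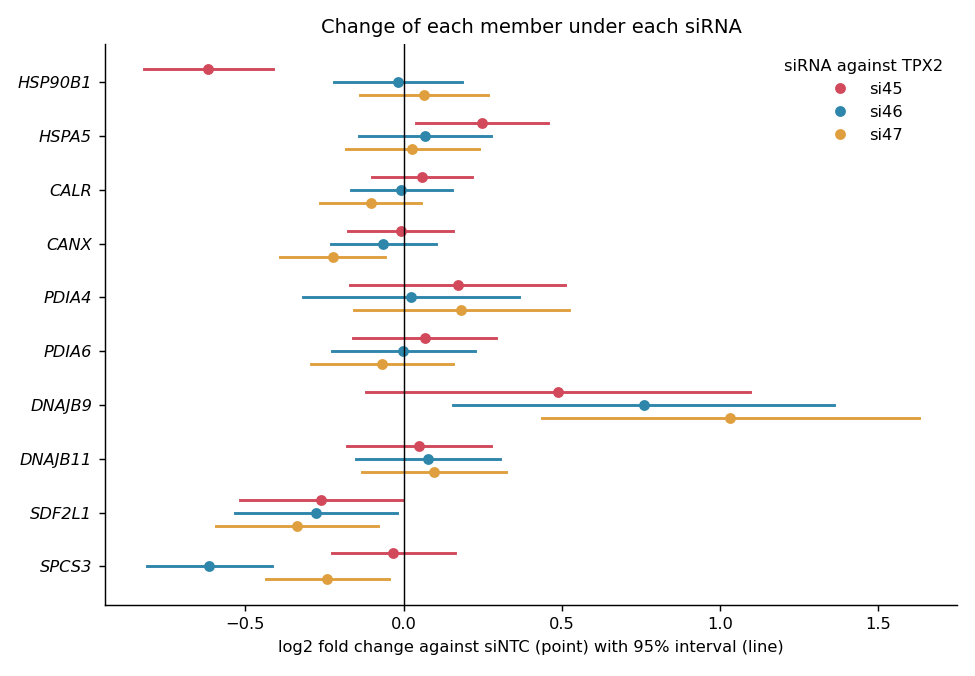
Fitted log2 fold change against siNTC (horizontal axis) of the 10 members under si45, si46 and si47. Points are estimates and lines their 95% intervals from edgeR, and the vertical line marks 0. HSP90B1 with si45 (-0.82 to -0.41) and SPCS3 with si46 (-0.81 to -0.42) were chosen on these values, and the si45 intervals of the other 8 members reach no lower than -0.52.

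Over the 8 members listed by function, 0 were called with si45, against 1.34% of all genes tested (1.01% higher and 0.324% lower, Benjamini-Hochberg adjusted p under 0.05). At an unadjusted p under 0.05, 1 was higher (HSPA5) and 1 lower (SDF2L1) with edgeR, and limma-voom and DESeq2 also called 0 at the adjusted threshold. With the replicate number as a block, 1 of the 8 was called, HSPA5, which was higher (0.245, edgeR adjusted p = 0.0296). Of the 8, 6 had a positive estimate, and their median log2 change was 0.06 beside 0.00 for all genes tested. The lowest bound of their 95% intervals was -0.52, so none of the 8 intervals reached the -0.62 estimated for HSP90B1. That estimate is the value HSP90B1 was chosen on, so the comparison is a description. Its own interval, -0.82 to -0.41, overlapped that of SDF2L1 (-0.52 to -0.005). With so few genes at so low a background, a count of 0 is near what any 8 genes would give. Without replicate 3 of every group, 1 of the 8 was called with si45, SDF2L1.

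With si46, 0 of the 8 were called, against 3.4% of all genes (2.14% higher and 1.25% lower), and at an unadjusted p under 0.05 edgeR had 1 higher and 1 lower. With si47, 1 of the 8 was called, DNAJB9, against 9.74% of all genes (4.91% higher and 4.83% lower), a share that a single gene in 8 does not set apart. This count was 0 without siNTC replicate 4, si47 replicate 1 or si47 replicate 2, and 2 without si47 replicate 3, without replicate 3 of every group or with the replicate block. For the mean of the 3 siRNAs against siNTC, 0 of the 8 were called, against 7.14% of all genes, with DNAJB9 at 0.76 (edgeR adjusted p = 0.0579) and SDF2L1 at -0.29 (edgeR adjusted p = 0.0769). That count was 1 or 2 on leaving out siNTC replicate 2, siNTC replicate 3, si45 replicate 3, si46 replicate 3 or si47 replicate 3, each time from DNAJB9, SDF2L1 or both. The 3 siRNA contrasts share their controls, so their values for a member are not independent of each other.

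Between pairs of siRNAs, where the difference itself is tested, 0 of the 8 were called in any pair. The background, in the order si45 minus si46, si45 minus si47 and si46 minus si47, was 0.0282%, 0.169% and 0.0493% of genes. At an unadjusted p under 0.05, 3 of the 8 were higher with si45 than with si47, namely CANX (0.21), HSPA5 (0.22) and CALR (0.16, edgeR adjusted p = 0.473), and none in the other pairs. The replicate numbers deviate together between si45 and si47, and with the number as a block 398 genes differed between them in place of 24, still with 0 of the 8.

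Within groups, several members moved together with the replicate number. HSP90B1 was lowest in replicate 3 in 4 of 4 groups, a pattern held by 2.06% of the genes tested. HSPA5, PDIA4 and PDIA6 were lowest in replicate 3 in 3 of 4 groups, a pattern held by 8.34% of genes. CALR and CANX were each lowest there in 1 group. Over the 12 libraries without si45, the Pearson correlation of log2 CPM with HSP90B1 was 0.774 for HSPA5, 0.594 for PDIA4 and 0.542 for PDIA6, and it was -0.267 for CALR and -0.257 for CANX. Over all 16 libraries it was -0.149 for HSPA5, 0.129 for PDIA4 and 0.0851 for PDIA6. These correlations are a description over libraries that share groups and replicate numbers. The fall of HSP90B1 with si45 was as large without replicate 3 of every group (log2 change -0.63) as with it.

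The rest of the folding pathway was described by 8 lists of 107 other genes, of which 103 were tested. The lists were chosen with earlier results of these data known, so their shares are a description. TXNDC5, KDELR3, DERL3 and HSPA1A had at most 3, 9, 0 and 10 counts in any library and were not tested. With si45, 0 of the 103 were called and the median log2 change was 0.08. With si46, 1 was higher and 1 lower (1.94%, median 0.06), against 2.14% higher and 1.25% lower of all genes. With si47, 11 were higher (10.7%) and 0 lower, against 4.91% higher and 4.83% lower of all genes, and the median was 0.07. For the mean of the 3 siRNAs, 7 were higher (6.8%) and 0 lower, against 3.61% higher and 3.53% lower of all genes. In either direction the share of all genes was 9.74% with si47 and 7.14% for the mean. The summed neuroblast markers were also above the controls in every si46 and si47 library, and their part in these counts was not tested. Without replicate 3 of every group these counts were 6 with si45, 7 with si46, 18 with si47 and 14 for the mean. With si45 the count was 2 without si45 replicate 3, and 1 without si46 replicate 3 or si47 replicate 3. With si46 it was 4 without si45 replicate 3 or si47 replicate 3, and 1 without siNTC replicate 1 or si46 replicate 2 or 4. With si47 it was 5 without siNTC replicate 4 or si47 replicate 2, and 7 without siNTC replicate 1 or 2 or si47 replicate 1 or 4. For the mean it was 4, 3, 3 and 2 without siNTC replicate 1, 2, 3 or 4, and 11 without si45 replicate 3.

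**Figure D4:**
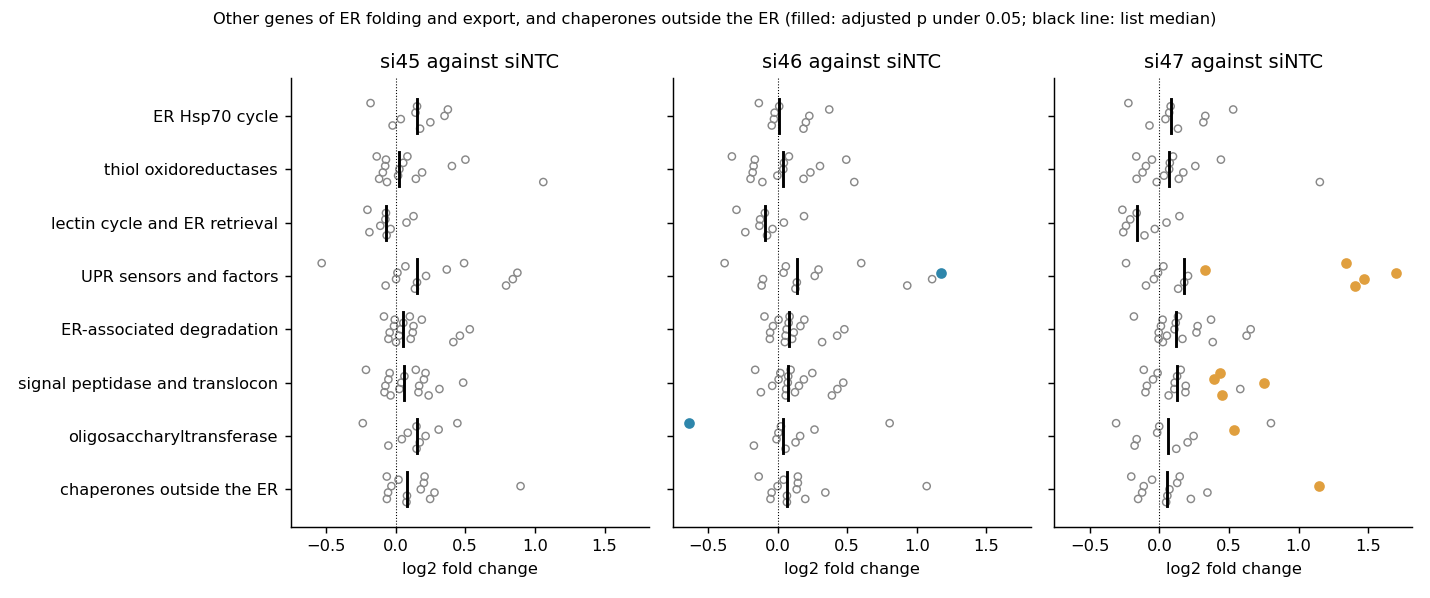
Log2 fold change against siNTC (horizontal axes) of the 103 tested genes in 8 lists, with 1 panel for each siRNA. Each circle is a gene, filled where its edgeR adjusted p is under 0.05, and the black line is the list median. Filled circles number 0 with si45, 2 with si46 and 11 with si47, and 5 of the 11 are in the list of UPR sensors and factors.

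Among the 13 UPR sensors and factors, 5 rose with si47, 0 with si45 and 1 with si46, against 4.91%, 1.01% and 2.14% of all genes called higher. This list too was chosen with earlier results of these data known. DDIT3 (CHOP), a transcription factor induced by stress kinases, was at 6.41, 7.82, 10.8 and 8.85 CPM with siNTC and at 18.2, 42.45, 18.15 and 31.2 CPM with si47, a log2 rise of 1.70 (SE 0.27, edgeR adjusted p = 0.000121). PPP1R15A (GADD34), the phosphatase subunit that restores translation after stress, rose by 1.34 with si47 (edgeR adjusted p = 8.26e-05) and by 1.17 with si46 (edgeR adjusted p = 0.000956). With si45 the changes of 0.87 for DDIT3 and 0.79 for PPP1R15A missed the threshold (edgeR adjusted p = 0.138 and 0.0609). In all 3 siRNA groups, 4 of 4 libraries were above every control for both genes, which were named for their low p. How many of all genes separate in this way was not counted, so the separation is a description. The pseudokinase TRIB3 rose by 1.40 (edgeR adjusted p = 0.00326) and the sensor ERN1 by 1.47 (edgeR adjusted p = 0.0119) with si47, each from under 6 CPM in the controls. The ERN1 call was lost without siNTC replicate 4 (edgeR adjusted p = 0.0503) or si47 replicate 2 (0.0728), while those of DDIT3, PPP1R15A and TRIB3 held on leaving out any single library. PPP1R15B, the constitutive partner of the same phosphatase, rose by 0.33 (edgeR adjusted p = 0.0243), a call lost without siNTC replicate 1 or 4 or si47 replicate 1 or 2 (edgeR adjusted p up to 0.13).

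DDIT3, PPP1R15A and TRIB3 are also targets of ATF4, the factor of the integrated stress response. The ATF4 transcript itself did not pass the test (log2 changes -0.07, -0.11 and -0.04 with si45, si46 and si47, edgeR adjusted p = 0.859, 0.67 and 0.866). XBP1, which drives chaperone genes after splicing by ERN1, was at 0.14, 0.27 and 0.18 (edgeR adjusted p = 0.812, 0.439 and 0.532), and gene counts from the transcript end do not separate its spliced form. ATF6 was at 0.15, 0.04 and -0.01 (edgeR adjusted p = 0.544, 0.881 and 0.968). The ER-associated degradation gene HERPUD1, looked at after its values were seen, was at 0.41, 0.32 and 0.63 (edgeR adjusted p = 0.534, 0.586 and 0.0935). No gene of this list differed between si45 and si47 at the threshold. DDIT3 was lower with si45 than with si47 by 0.83 with an edgeR adjusted p = 0.172.

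For the next 4 lists the background is 1.34%, 3.4% and 9.74% of all genes called in either direction with si45, si46 and si47, and these lists are too short for a count of 0 to stand apart. In the Hsp70 cycle list, 0 of 9 genes were called with any siRNA, and HYOU1 (GRP170), the nucleotide exchange factor of HSPA5, was at 0.04, -0.03 and 0.07 with si45, si46 and si47 (edgeR adjusted p = 0.94, 0.947 and 0.742). Of the thiol oxidoreductases, 0 of 15 tested were called with any single siRNA. Of the lectin cycle and retrieval genes, 0 of 9 tested were called, with medians of -0.07, -0.09 and -0.16. Of the ER-associated degradation genes, 0 of 17 tested were called, with a median of 0.12 with si47.

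At the translocon and signal peptidase, 4 of 17 genes rose with si47 (4.91% of all genes) and 0 with si45 or si46 (1.01% and 2.14% of all genes), where 17 genes are too few for a count of 0 to stand apart. SSR2, a subunit of the translocon-associated complex, was at 151, 155, 164.5 and 157.5 CPM with siNTC, 146, 183.5, 149 and 161 with si45, and 190, 222, 232.5 and 203 with si47. Its rise with si47 was 0.43 (SE 0.09, edgeR adjusted p = 0.00105), with no overlap with the controls or with si45. SSR2 was named for its low p, and the share of all genes that separate so was not counted. It was the single gene of the 103 that differed between si45 and si47 (log2 difference -0.40, edgeR adjusted p = 0.0361). With the replicate number as a block, 4 of the 103 differed between si45 and si47. The call was lost without si45 replicate 1, 3 or 4 or si47 replicate 2 or 4, each giving 0 of the 103, and in a fit on the si45 and si47 libraries alone (SSR2 edgeR adjusted p = 0.131). SEC61G, the gamma subunit of the protein channel, rose with si47 by 0.75 (edgeR adjusted p = 0.0451). The si47 calls of SEC61G, SPCS1 and SEC11C were lost on leaving out 10, 8 and 5 of the 16 libraries in turn (edgeR adjusted p up to 0.122, 0.177 and 0.14), and that of SSR2 against siNTC held in all 16 cases.

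In the oligosaccharyltransferase, which attaches sugar chains to new proteins, 1 of 10 genes rose with si47 (4.91% of all genes) and 1 fell with si46 (1.25%). OST4 rose with si47 by 0.53 (edgeR adjusted p = 0.00146) and MAGT1 fell with si46 by 0.64 (log2 change, edgeR adjusted p = 0.0178). The OST4 call held on leaving out any single library, and the MAGT1 call was lost without siNTC replicate 1 or si46 replicate 2, 3 or 4 (edgeR adjusted p = 0.0514 to 0.0716). MAGT1 was at 33.0, 29.4, 29.7 and 30.4 CPM with siNTC, 30.9, 34.9, 34.85 and 35.4 with si45, 24.7, 19.5, 16.8 and 17.3 with si46 and 16.35, 27.9, 26.7 and 27.9 with si47. Its si46 and si47 libraries were all below every control, as the si46 libraries of SPCS3 were, and the share of all genes that separate so was not counted. Between si45 and si46 the MAGT1 difference of 0.79 just missed the threshold (edgeR adjusted p = 0.0503). Of the 13 chaperones tested outside the ER, 1 was called with si47 (4.91% of all genes higher) and 0 with si45 or si46. HSPA1B, the stress-inducible Hsp70 of the cytosol, rose with si47 by 1.14 (edgeR adjusted p = 0.0481) and was at 0.90 with si45 (edgeR adjusted p = 0.303). Its copy HSPA1A is nearly identical and was listed with at most 10 counts, so reads of the pair may have been assigned unevenly, and the value of HSPA1B is uncertain. The HSPA1B call was also lost on leaving out 12 of the 16 libraries in turn (edgeR adjusted p up to 0.132).

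The genes most like HSP90B1 were taken by Pearson correlation of log2 CPM over the 16 libraries, among 7085 genes with a mean of at least 20 CPM. They were NAP1L1 (r = 0.9), a histone chaperone, MAPK6 (0.882), a kinase of the MAPK family, SRI (0.812), a calcium-binding protein, SEPTIN3 (0.792), a septin of neurons, and PHLDA1 (0.767). None of these is an ER chaperone. The ranking includes the si45 libraries on which HSP90B1 was chosen, so a gene that did not fall with si45 could hardly rank high. The lowest were PLSCR1 (-0.763) and ENTPD4 (-0.771). Over the 12 libraries without si45 the values were 0.583 for NAP1L1, 0.108 for MAPK6, 0.648 for SRI, 0.776 for SEPTIN3 and 0.774 for PHLDA1. The value of MAPK6 was thus low without the si45 libraries, while those of SEPTIN3 and PHLDA1 stayed near their values over 16. How many of the 7085 genes reach such values without si45 was not counted. HSP90B1 was lowest in replicate 3 of every group, and the part of the replicate number in these values was not tested. Over the same 12 libraries the ER chaperone HSPA5 was at 0.774, as high as PHLDA1. PDIA4 and PDIA6 were at 0.594 and 0.542, and CALR and CANX at -0.267 and -0.257.

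MAPK6 was at 144 ± 11.4 CPM with siNTC, 90.0 ± 5.53 with si45, 151 ± 7.86 with si46 and 156 ± 11.1 with si47 (SD, n = 4). NAP1L1 was at 1107 ± 59.2, 901 ± 44.0, 1121 ± 88.7 and 1117 ± 45.3 CPM in the same order. Both were thus lowest with si45, as HSP90B1 was, and were picked for that likeness. SRI was at 30.5 ± 2.61 CPM with siNTC and 23.9 ± 4.81 with si45, and SEPTIN3 at 72.3 ± 11.4 and 58.4 ± 2.26. Ranges overlapped for SRI and did not for SEPTIN3. Both were also picked for likeness over libraries that include si45, and the share of all genes that separate so was not counted.

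The promoter element printed above gives another set in which to place HSP90B1. Of the 25 genes with an ERSE match, 22 were in the table and 15 were tested, 5 of them members. HSP90B1 is among these members and is not counted here, because it was chosen on its level with si45. Of the 10 that are not members, 0 were called with si45, against 1.34% of all genes, and their median log2 change was 0.07. With si46 and si47 0 of these 10 were called as well, against 3.4% and 9.74% of all genes, with medians of 0.04 and 0.14, and 10 genes are too few for these counts to stand apart. For the members HSPA5, CALR, CANX and PDIA6, which also carry the element, the 95% intervals of the log2 change with si45 began at 0.04, -0.10, -0.18 and -0.16.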

How the data were processed

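The authors deposited 1 table of raw counts per Ensembl gene for 16 libraries, whole numbers that were not normalized. The submitters' processing notes name FastQC 0.11.7, STAR 2.7.2b, edgeR 3.36.0, limma 3.50.3 and GRCh38, with no role for each. The counter, the annotation and the use of strand are not given in the sources used here. Libraries were amplified with 15 PCR cycles, per the labels' protocols, so intervals cover counting error and replicate spread but not duplicated molecules. Each column name gives an siRNA and a replicate number, which match 1 sample title each, and the siRNA sets the group. Gene symbols matched 58434 identifiers. Mitochondrial genes were not analysed here. The 24 pairs of replicates differed by 4.59 to 10.7 in chi-square per degree of freedom, so no library was entered more than once.

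The test was that of edgeR 4.0.16, run in R 4.3.3 (filterByExpr with a minimum count of 10 and a minimum total of 15, TMM, robust quasi-likelihood), in 1 fit of 4 group means over all libraries. p-values were adjusted by Benjamini-Hochberg over 14193 genes in each contrast, with a threshold of 0.05, and the threshold applies to every adjusted p printed. CPM uses TMM library sizes, log2 CPM a prior count of 2, and the TPX2 permutation test log2(CPM + 1). The fit was tested on simulated counts. Gene positions came from the GENCODE annotation of GRCh38 and promoter windows from RefSeq.

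The members and lists were chosen with earlier results of these data known. Genes named beyond the members and TPX2 were up to 4 per list with the lowest p among those called in a siRNA contrast, the genes overlapping HSP90B1, and the 5 most and 2 least like it. PPP1R15B, ATF4, ATF6, XBP1, HERPUD1, HYOU1, HSP90AA1, HSP90AB1, SPCS2 and SEC11A fall outside that rule and were picked after their values were seen. Deviations from group means correlated over 0.1 in all 4 same-numbered pairs of si45 and si47 (r = 0.12 to 0.242), a pairing that comes from the values. They did so in 3 of 4 pairs of si45 and si46 (r = 0.0716 to 0.247) and of si46 and si47 (0.0854 to 0.209). With siNTC the pairs over 0.1 were 2 of 4 for si45, 1 for si46 and 1 for si47. Alternatives were RLE and upper-quartile scaling, DESeq2 1.42.0, limma-voom (limma 3.58.1), a fit restricted to the groups compared, a replicate block, a count filter that was dropped or raised to 10 in each library, and leaving out libraries.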

Additional observations from a re-analysis of the deposited data

Results flagged for a closer look

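In 96 groups of 4 libraries, the library at 1 end was checked for a gap to its nearest neighbour that was large beside the range of the group. 10 groups stood out, where chance alone flags about 1 in 20 groups, or 4.8 here. For the members these were HSP90B1 in si45 replicate 2 at 433 CPM, HSPA5 in si46 replicate 3 at 555.8 CPM, CANX in si47 replicate 1 at 540.8 CPM and DNAJB9 in si45 replicate 1 at 10.09 CPM. The HSP90B1-to-HSPA5 count ratio of si47 replicate 1 was 1.026, above its group. The others were TPX2 in si45 replicate 3 at 121 CPM, DDIT3 in si46 replicate 2 at 24.37 CPM, OST4 in si47 replicate 1 at 106.2 CPM, and MAGT1 in si45 replicate 1 at 30.9 CPM and in si47 replicate 1 at 16.35 CPM. In 4 of the 10 the library was si47 replicate 1.

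Among siRNAs against the same target, the test of the difference itself set apart SSR2 between si45 and si47 (log2 difference -0.4045, edgeR adjusted p = 0.0361). HSP90B1 was lower with si45 than with si46 by a log2 difference of -0.6001 and than with si47 by -0.6835, and SPCS3 was higher with si45 than with si46 by 0.5808. Those 3 values chose the genes and are given with no test.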

How the results depend on the processing

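The description of HSP90B1 with si45 stayed between -0.62 and -0.61 on the log2 scale under the 8 alternatives of scaling, tool, filter and design. Among the members listed by function, DNAJB9 with si47 was the change called with all libraries, and 21 of its 25 values under other settings kept the call while 4 lost it (0.87 to 1.3 on leaving out single libraries). Of 375 values for called changes of other named genes, 308 kept the call, 67 lost it and 0 changed sign. Of 1023 values for member changes the text gives, 46 changed sign, and the causes were not tested. Member changes in contrasts for which the text gives no value were left out of these counts, and the fit on only the groups compared gives none for the mean of the siRNAs. Depth limits DNAJB9 most among the members, at 18 to 82 counts per library.

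PDIA6 with si46 became 0.00314 with upper-quartile scaling, 0.00449 with limma-voom, 0.000237 with no filter, 0.00667 with at least 10 counts in each library and 0.00287 with only its 2 groups in the fit. CANX with si45 became 0.000146 with no filter, and CALR with si46 0.000862 with the 10-count filter. Leaving out single libraries gave these log2 ranges that cross 0. With si45 they were -0.0174 to 0.107 for CALR, -0.0524 to 0.0495 for CANX, -0.0188 to 0.172 for PDIA6, -0.00725 to 0.144 for DNAJB11 and -0.0574 to 0.00628 for SPCS3. With si46 they were -0.0988 to 0.059 for HSP90B1, -0.0125 to 0.141 for HSPA5, -0.0317 to 0.0103 for CALR, -0.0966 to 0.149 for PDIA4 and -0.0863 to 0.103 for PDIA6. With si47 they were -0.0527 to 0.0914 for HSPA5 and -0.153 to 0.0375 for PDIA6. SDF2L1 between si45 and si46 ran from -0.0875 to 0.101, and between si45 and si47 from -0.0299 to 0.161. Without replicate 3 of every group, chosen after seeing the data, signs changed for HSP90B1 (0.00453), CALR (0.0147) and PDIA4 (-0.0316) with si46, HSPA5 with si47 (-0.00426) and SDF2L1 between si45 and si46 (-0.104).

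Calls among the 8 members listed by function with si47 were 2 with DESeq2 or no filter, 2 without replicate 3 of every group, and 0 to 2 on leaving out single libraries. For the mean contrast they were 1 with DESeq2, 2 with no filter, 1 without replicate 3 and 0 to 2 on leaving out single libraries, and with si45 1 without replicate 3. Calls among the 103 list genes with si45 were 1 with DESeq2, 4 with no filter, 3 with only the groups compared, 6 without replicate 3 and 0 to 2 on leaving out single libraries. With si46 they were 4, 6, 7, 7 and 1 to 4 in the same order. With si47 they were 18 without replicate 3 and 5 to 16 on leaving out single libraries, and in the mean contrast 11 with no filter, 14 without replicate 3 and 2 to 11 on leaving out single libraries. Between si45 and si46 they were 1 with RLE scaling, DESeq2, no filter or the 10-count filter, and 0 to 1 on leaving out single libraries. Between si45 and si47 they were 2 with no filter, 0 with only the groups compared or without replicate 3, and 0 to 2 on leaving out single libraries. Between si46 and si47 they were 1 with no filter.

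Same-numbered libraries of si45 and si47 correlated over 0.1 in 4 of 4 pairs, and those of the other group pairs in 1 to 3 of 4. With the replicate number as a block, HSPA5 with si45 was 0.245 (edgeR adjusted p = 0.0296) and CANX with si47 was -0.23 (edgeR adjusted p = 0.0145). PDIA6 with si46 became 0.00451 in that fit. Members called were 1 with si45, 2 with si47 and 1 in the mean contrast. List genes called were 6 with si45, 10 with si46, 20 with si47, and 18 in the mean contrast. List genes that differed numbered 4 for si47 against si45, 2 for si47 against si46 and 1 for si46 against si45. Over all genes tested, the block gave 577 calls with si45, 1073 with si46, 2198 with si47 and 1817 in the mean contrast, in place of 190, 482, 1382 and 1014. Between siRNAs it gave 398 for si47 against si45, 108 for si47 against si46 and 33 for si46 against si45, in place of 24, 7 and 4.

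Other settings that moved the number of genes called by over 1.5 times were DESeq2 (292 with si45, and 153, 45 and 13 for the 3 pairs of siRNAs in that order), no filter (356 with si45, and 166, 44 and 14), only the groups compared (4 for si47 against si46) and leaving out replicate 3 of every group (379 with si45, and 77 for si47 against si45). On leaving out single libraries the number ran from 97 (without si45 replicate 1) to 406 (without si45 replicate 3) with si45. It ran from 252 (without si46 replicate 2) upward with si46, from 629 (without siNTC replicate 1) upward in the mean contrast, from 10 (without si45 replicate 4) to 147 (without si47 replicate 3) for si47 against si45, from 2 (without si46 replicate 3) to 23 (without si47 replicate 3) for si47 against si46, and up to 7 (without si46 replicate 1) for si46 against si45. The causes were not tested.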
